A study of Mus musculus with 9 samples.

Results

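The podocyte genes described here are 8 of the 55385 genes in a mouse kidney RNA-seq table: Nphs1, Magi2, Synpo, Nes, Podxl, Ptpro, Wt1 and Cdkn1c. They were taken by gene symbol as genes of the slit diaphragm and of the podocyte, by a rule that uses no measured value. The choice was made with earlier results of these data known. Each symbol matched a single row, and all 8 passed the filter on low counts, which kept 21392 genes for testing.

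Podocytes are the epithelial cells that wrap the capillaries of the glomerulus. Their foot processes interlock, and the gap between neighbouring processes is bridged by the slit diaphragm, a protein sheet that holds back plasma proteins while water and small solutes pass. A podocyte depends on an actin and intermediate filament skeleton, on a charged apical surface, on transcription factors that keep it differentiated and on inhibitors that hold it out of the cell cycle, and injured podocytes are known to alter or lose such features.

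The study asked how the flavonoid pectolinarigenin acts on kidneys damaged by high uric acid. One library of poly(A) RNA was made from kidney tissue of each of 9 mice, in 3 groups of 3. Controls carry the label control and untreated, HN mice (hyperuricemic nephropathy) carry the label of the disease and untreated, and PEC mice carry the disease label with pectolinarigenin as treatment. The sample titles of the Control libraries also begin with the words HN mice, and the groups here follow the disease state. All are C57BL/6 mice by their labels, and male C57BL/6J mice of 8 to 10 weeks at the start in the methods, with 8 mice assigned to each group. By the methods, adenine at 0.16 g/kg and potassium oxonate at 2.4 g/kg were fed every other day for 4 weeks to make the model. Pectolinarigenin was given by mouth daily over the same weeks. The labels state no dose for it, the methods list groups at 25 and at 50 mg/kg without saying which was sequenced, and the results of the study speak of 25 mg/kg. Which of the 8 mice of a group were sequenced, and how they were picked, is not given in the sources used here. Libraries are named by group and animal number: Control 2, 4 and 5, HN 4, 8 and 12, and PEC 1, 2 and 3.

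Total counts were 74965874 to 78459183 in the Control libraries, 74212324 to 81069646 in HN and 57714111 to 74397038 in PEC. The libraries differed in what filled these totals. Counts on mitochondrially encoded genes made up 14.2% ± 1.82 (SD, n = 3) of a Control library, 6.19% ± 0.164 (SD, n = 3) of an HN library and 12.3% ± 1.77 (SD, n = 3) of a PEC library. Ribosomal RNA genes took at most 0.0042% in any Control or HN library, and 0.296%, 1.72% and 0.302% in PEC 1, 2 and 3. The PEC libraries also stood apart by transcript length and base composition. Across 21164 genes, the deviation of a library from the mean of all libraries had a Spearman rank correlation with length of -0.26, -0.23 and -0.24 in PEC 1, 2 and 3, against 0.04 to 0.06 in Control and 0.16 to 0.19 in HN. The same correlation with GC content was 0.15 to 0.17 in PEC and below 0 in every Control and HN library. Genes are not independent replicates, so these values describe the libraries only. Because 7 of the 8 podocyte genes are longer than at least 71.9% of expressed genes, and Cdkn1c is longer than 27.4%, these features lie beside every value of the PEC libraries. Their part in the results was not tested beyond the alternatives given here.

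Levels are given as FPKM (fragments per kilobase of gene length, with libraries set level by their totals), as the authors computed them, and allow genes to be compared with each other. Differences between groups are given as fold changes of the counts in edgeR's quasi-likelihood test after TMM scaling, which sets libraries level on the bulk of their genes. A gene is called when its p, adjusted by Benjamini and Hochberg's method over all 21392 tested genes, is at most 0.05. FPKM is scaled to the library total and not by TMM, so that the scales can disagree. The TMM factors were 0.78 to 0.83 in Control, 1.15 to 1.22 in HN and 1.02 to 1.05 in PEC. With library totals in place of TMM, the median log2 change of all tested genes moved from -0.0008 to 0.56 for HN against Control, from -0.01 to -0.21 for PEC against HN and from 0.04 to 0.40 for PEC against Control. In the same order it was 0.03, 0.11 and 0.20 with upper quartile scaling and -0.20, 0.05 and -0.11 with the length trend removed, and the move of a list under these settings is to be read beside that of all genes. An exact permutation test of 3 mice against 3 cannot give a two-sided p below 0.1, so only the fit across all genes was used for calls.

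Within the kidney, Podxl was by far the most abundant podocyte gene. Its mean of 41.0 FPKM over the 9 libraries was above that of 95% of the tested genes. Cdkn1c followed with a mean of 9.94 FPKM, Nes with 8.95, Nphs1 with 5.38, Synpo with 3.12 and Ptpro with 2.88. Wt1 at 1.09 FPKM and Magi2 at 0.78 FPKM were the least abundant, and Magi2 was above only 33.8% of the tested genes. Neighbours in this order were not always separate. In Control, the FPKM of Nphs1 and Nes overlapped, as did those of Synpo and Ptpro and those of Wt1 and Magi2. In HN, Nes lay above Cdkn1c and Synpo above Ptpro in every library, while Wt1 and Magi2 still overlapped. In PEC, Cdkn1c and Nes overlapped, as did Synpo and Ptpro, and Wt1 and Magi2.

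**Figure D1:**
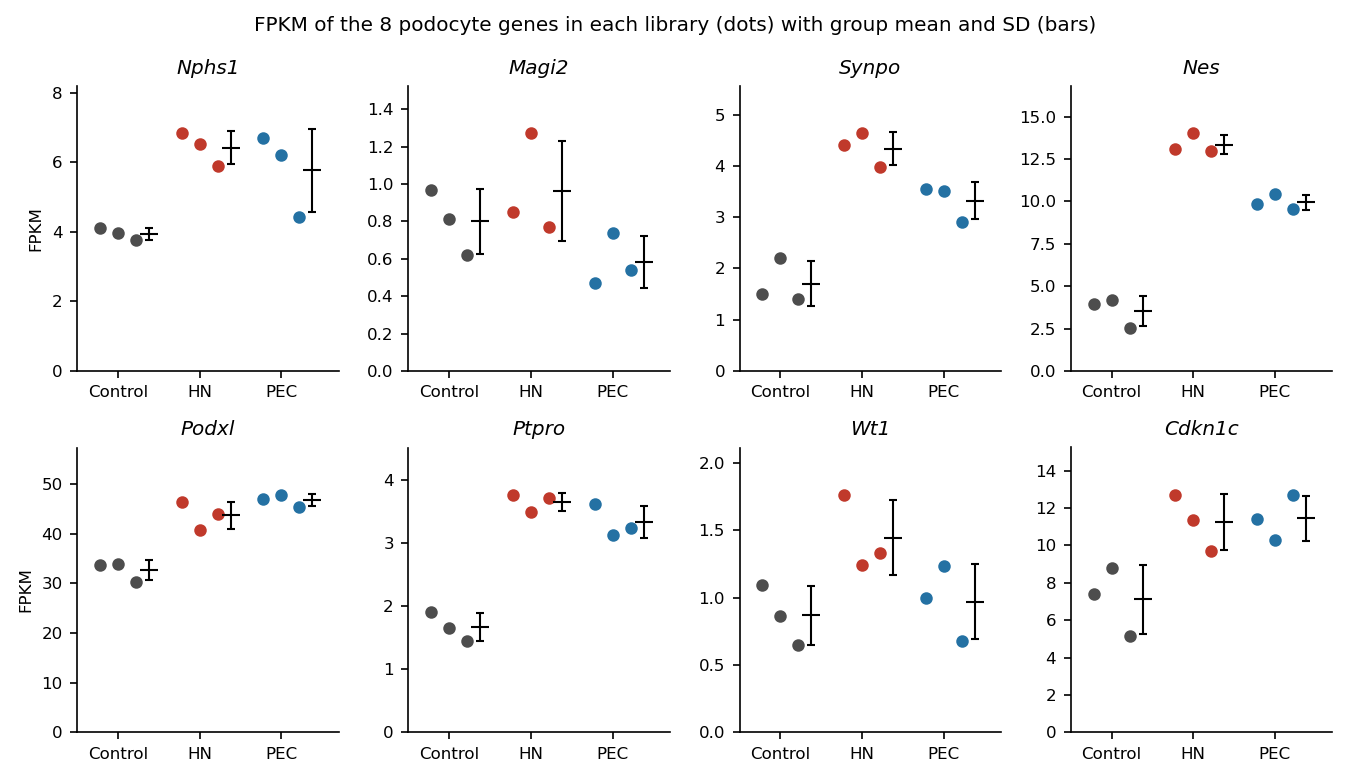
FPKM (vertical axes, each starting at 0) of the 8 podocyte genes in the Control, HN and PEC libraries, 1 dot per library, with the mean and SD of each group of 3 as bars to the right of its dots. On this scale all but Magi2 sit higher in every HN library than in every Control library. After TMM scaling this holds for Nes, Synpo and Ptpro only. The share of all tested genes that separate in this way is not given here, so neither count is a result about the group. In FPKM, Nes and Synpo sit between Control and HN in every PEC library.

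In HN kidneys, 3 podocyte genes were called higher than in Control kidneys: Nes by 2.6-fold, Synpo by 1.76-fold and Ptpro by 1.51-fold, each in 3 of 3 HN libraries against every Control library after TMM scaling. The other 5, Nphs1, Podxl, Wt1, Magi2 and Cdkn1c, were not called. The genes that rose encode a filament protein, an actin-associated protein and a surface phosphatase. The comparison asks what the disease model does to the kidney, and here to its podocyte transcripts. Of all tested genes, 21.1% were called higher in HN and 20.7% lower, so that 3 of 8 higher stands beside 21.1% and 0 of 8 lower beside 20.7%. At an unadjusted p under 0.05, edgeR, DESeq2 and limma on log2 CPM each gave 3 higher and 0 lower, as they did at an adjusted p of at most 0.05. At the adjusted p, DESeq2 called 16.0% higher and 13.9% lower, and limma 22.5% and 21.2% of all tested genes. The DESeq2 shares, here and below, are of the 32380 genes with at least 1 count. These are included whether or not DESeq2 gave them an adjusted p, a wider base than the 21392 genes of edgeR. No share of all genes is given here for the unadjusted p, so that count is no result about the group. With library totals in place of TMM, edgeR called 7 of the 8 higher, all but Magi2, where 45.1% of all tested genes were called higher. In bulk tissue, more or fewer podocytes and more or less RNA per podocyte cannot be told apart, and this holds for every value here.

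Nphs1 encodes nephrin, the adhesion protein that forms the slit diaphragm. The gene (ENSMUSG00000006649) lies on chromosome 7 from 30458315 to 30487223 on the plus strand. Its coordinates, like those of the other members, are given as the table has them, and they are those of mouse build GRCm38. Nphs1 measured 4.10, 3.96 and 3.77 FPKM in Control 2, 4 and 5, then 6.83, 6.53 and 5.90 FPKM in HN 4, 8 and 12, and 6.70, 6.20 and 4.43 FPKM in PEC 1, 2 and 3. On this scale every HN and PEC library was above every Control library, and PEC 3 was the lowest of the treated group. After TMM scaling, Nphs1 measured 34.6 to 36.4 CPM (counts scaled to libraries of equal size) in Control, 35.7 to 43.6 in HN and 31.9 to 48.2 in PEC, and all 3 groups overlapped. The change in HN against Control was 0.17 log2 (SE 0.15, 95% interval -0.17 to 0.51), with an edgeR adjusted p of 0.401. The interval takes in a rise of up to 1.42-fold. The pseudogene Rps12-ps4 lies inside Nphs1 on the opposite strand and reached 2764 counts in PEC 1, and 89.0% of the Nphs1 count in PEC 3. How the counting treated strand is not given in the sources used here, so the reads of the pair may not be fully separate and the values of Nphs1 are uncertain to that extent.

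Magi2 encodes a scaffold protein that binds nephrin inside the foot process. Its gene (ENSMUSG00000040003) is the longest of the 8, spanning 1477757 bases of chromosome 5 from 19227036 to 20704792 on the plus strand. Magi2 measured 0.97, 0.81 and 0.62 FPKM in Control 2, 4 and 5, then 0.85, 1.27 and 0.77 FPKM in HN 4, 8 and 12, and 0.47, 0.74 and 0.54 FPKM in PEC 1, 2 and 3. HN 8 was the highest library and PEC 1 the lowest, and Control overlapped with both other groups in FPKM while HN and PEC did not overlap. After TMM scaling, Magi2 measured 9.83 to 14.8 CPM in Control, 7.96 to 13.4 in HN and 5.75 to 9.11 in PEC. Every PEC library was then below every Control library, while HN overlapped with both. The change in HN against Control was -0.26 log2 (SE 0.25, 95% interval -0.83 to 0.30), with an edgeR adjusted p of 0.449. The direction turned to 0.29 log2 with library totals. Magi2 is the only member with a lower call in any of the 3 comparisons in the edgeR fit with TMM, that of PEC against Control, so the stretch just upstream of its start is shown.
Promoters were looked up in a RefSeq table of build GRCm38.p6, in which 4 of the 8 members have an entry: Nes, Magi2, Ptpro and Nphs1. Podxl, Synpo, Wt1 and Cdkn1c have none there. The entry of Nphs1 lies inside exons and is not shown, and of the 2 entries of Magi2 only the one at the start of the annotated gene is. In the 3 windows shown, 4 motifs were searched on both strands: the letters GTGGGAG, a core of the kind the WT1 protein binds, the letters GGGCGG of a GC box, the letters TATAAA of a TATA box, and the letters CAGCTG of an E-box. The Magi2 stretch is chr5:19226796-19227035 on the plus strand, 240 bases upstream of the annotated gene and outside GENCODE exons. The capitals mark the only match, a CAGCTG, which reads the same on both strands. Of 32851 promoter windows of the same length and place, 12.4% hold this motif, so the match is a description only.
Magi2: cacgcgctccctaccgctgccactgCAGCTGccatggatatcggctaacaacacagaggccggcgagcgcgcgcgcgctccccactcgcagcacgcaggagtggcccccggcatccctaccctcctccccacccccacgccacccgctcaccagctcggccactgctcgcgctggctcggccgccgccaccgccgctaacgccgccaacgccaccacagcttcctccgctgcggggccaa

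Nes encodes nestin, an intermediate filament protein of podocytes that progenitor, endothelial and mesenchymal cells of many tissues also make. The gene (ENSMUSG00000004891) lies on chromosome 3 from 87971078 to 87980451 on the plus strand. Nes measured 3.92, 4.20 and 2.55 FPKM in Control 2, 4 and 5, then 13.07, 14.00 and 12.95 FPKM in HN 4, 8 and 12, and 9.86, 10.42 and 9.56 FPKM in PEC 1, 2 and 3. The 3 groups were fully separate, with Control low, PEC between and HN high. The same order held after TMM scaling, at 22.9 to 35.6 CPM in Control, 66.6 to 72.5 in PEC and 75.9 to 83.0 in HN. Nes rose 2.6-fold in HN against Control (1.38 log2, SE 0.15, 95% interval 1.04 to 1.72), with an edgeR adjusted p of 9.86e-05, the largest change of the 8 genes in this comparison. Its upstream stretch is shown because Nes had the largest change of the members that rose together. It is chr3:87970843-87971077 on the plus strand of GRCm38.p6, 235 bases upstream of the annotated gene and outside GENCODE exons, from RefSeq. The capitals mark the 2 matches to the GC box, whose letters GGGCGG lie on the minus strand and read CCGCCC here. Of the 32851 windows cut to the same place, 30.6% hold a GC box. The other 3 motifs are not in this window.
Nes: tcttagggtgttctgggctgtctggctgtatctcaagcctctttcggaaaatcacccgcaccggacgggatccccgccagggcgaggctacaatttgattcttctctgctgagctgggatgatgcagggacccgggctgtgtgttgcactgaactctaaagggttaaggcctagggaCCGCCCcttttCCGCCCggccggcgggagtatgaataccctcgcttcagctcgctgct

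Synpo encodes synaptopodin, an actin-associated protein of foot processes that takes part in their shape. The gene (ENSMUSG00000043079) lies on chromosome 18 from 60593973 to 60660142 on the minus strand. Synpo measured 1.5, 2.20 and 1.41 FPKM in Control 2, 4 and 5, then 4.40, 4.63 and 3.98 FPKM in HN 4, 8 and 12, and 3.54, 3.51 and 2.90 FPKM in PEC 1, 2 and 3. In FPKM the 3 groups did not overlap: Control was lowest, PEC between and HN highest. After TMM scaling, Control at 18.8 to 27.7 CPM stayed below HN at 34.7 to 40.8 and PEC at 30.0 to 36.7, and HN and PEC overlapped. Synpo rose 1.76-fold in HN against Control (0.82 log2, SE 0.16, 95% interval 0.45 to 1.19), with an edgeR adjusted p of 0.00313.

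Podxl encodes podocalyxin, the charged sialomucin of the podocyte's apical surface, which endothelial cells also carry. The gene (ENSMUSG00000025608) lies on chromosome 6 from 31519488 to 31563981 on the minus strand. Podxl measured 33.72, 33.88 and 30.27 FPKM in Control 2, 4 and 5, then 46.28, 40.75 and 43.85 FPKM in HN 4, 8 and 12, and 46.94, 47.75 and 45.34 FPKM in PEC 1, 2 and 3. In FPKM, every HN and PEC library was above every Control library, and HN and PEC overlapped. After TMM scaling the picture was different: Podxl measured 232 to 248 CPM in Control, 207 to 245 in HN and 270.1 to 284 in PEC. HN and Control then overlapped, and every PEC library was above all 6 others. The change in HN against Control was -0.11 log2 (SE 0.08, 95% interval -0.30 to 0.07), with an edgeR adjusted p of 0.312. Its direction turned to 0.44 log2 with library totals, where Podxl was called higher at an edgeR adjusted p of 0.00147, below the 0.56 of the median gene on that scale. With the length trend removed, Podxl was called lower at -0.39 log2.

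Ptpro encodes a receptor-type tyrosine phosphatase of the apical foot process membrane. The gene (ENSMUSG00000030223) lies on chromosome 6 from 137252319 to 137463233 on the plus strand. Ptpro measured 1.90, 1.66 and 1.45 FPKM in Control 2, 4 and 5, then 3.76, 3.49 and 3.71 FPKM in HN 4, 8 and 12, and 3.62, 3.13 and 3.24 FPKM in PEC 1, 2 and 3. Every HN and PEC library was above every Control library, and HN and PEC overlapped. TMM scaling left this order, with 13.7 to 17.1 CPM in Control, 21.7 to 24.4 in HN and 22.8 to 26.5 in PEC. Ptpro rose 1.51-fold in HN against Control (0.60 log2, SE 0.11, 95% interval 0.34 to 0.85), with an edgeR adjusted p of 0.00235. Its upstream stretch is shown as that of the other riser with an entry. It is chr6:137252049-137252298 on the plus strand of GRCm38.p6, 250 bases from RefSeq that lie upstream of the annotated gene and outside GENCODE exons. The capitals mark the 1 match, to GTGGGAG on the plus strand, which 8.25% of windows of this length hold. The TATA box was found in none of the 3 printed windows, and 11.9% to 12.4% of all windows hold it.
Ptpro: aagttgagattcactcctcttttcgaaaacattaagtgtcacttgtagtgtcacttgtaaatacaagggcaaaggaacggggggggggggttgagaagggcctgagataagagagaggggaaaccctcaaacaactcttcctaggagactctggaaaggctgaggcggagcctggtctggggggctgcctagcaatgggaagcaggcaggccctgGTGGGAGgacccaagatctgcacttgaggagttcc

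Wt1 encodes a zinc finger transcription factor that podocytes need to stay differentiated, and which parietal and mesothelial cells can make too. The gene (ENSMUSG00000016458) lies on chromosome 2 from 105126529 to 105173616 on the plus strand. Wt1 measured 1.09, 0.86 and 0.65 FPKM in Control 2, 4 and 5, then 1.76, 1.24 and 1.33 FPKM in HN 4, 8 and 12, and 1.00, 1.23 and 0.68 FPKM in PEC 1, 2 and 3. HN lay above both other groups in FPKM, though only by the distance between HN 8 at 1.24 and PEC 2 at 1.23, and Control and PEC overlapped. After TMM scaling all 3 groups overlapped, at 5.72 to 9.12 CPM in Control, 7.14 to 10.5 in HN and 4.61 to 8.27 in PEC. The change in HN against Control was 0.20 log2 (SE 0.26, 95% interval -0.40 to 0.80), with an edgeR adjusted p of 0.59. This interval is the widest of the 8 in this comparison and takes in a fall to 0.76-fold as well as a rise to 1.74-fold.

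Cdkn1c encodes a cyclin-dependent kinase inhibitor that marks podocytes that have left the cell cycle. The gene (ENSMUSG00000037664) is the shortest of the 8 and lies on chromosome 7 from 143458339 to 143461050 on the minus strand. Cdkn1c measured 7.38, 8.81 and 5.14 FPKM in Control 2, 4 and 5, then 12.70, 11.37 and 9.70 FPKM in HN 4, 8 and 12, and 11.40, 10.29 and 12.70 FPKM in PEC 1, 2 and 3. Both disease groups lay above Control in FPKM and overlapped with each other, and Control 5 was the lowest library. After TMM scaling all groups overlapped, at 14.7 to 23.7 CPM in Control, 18.1 to 25 in HN and 22.8 to 28.1 in PEC. The change in HN against Control was 0.14 log2 (SE 0.19, 95% interval -0.28 to 0.56), with an edgeR adjusted p of 0.598. Without Control 5 it was -0.03 log2.

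In PEC kidneys, set against HN, 1 podocyte gene was called and 7 were not. The comparison asks what pectolinarigenin changes in the diseased kidney. Podxl was called higher, by 1.24-fold (0.31 log2, SE 0.08, 95% interval 0.13 to 0.50), with an edgeR adjusted p of 0.0143 and with 3 of 3 PEC libraries above every HN library after TMM scaling. Of all tested genes 18.3% were called higher and 20.6% lower, so that 1 of 8 higher lies near the background share and is no result about the podocyte genes as a group. At an unadjusted p under 0.05, edgeR, DESeq2 and limma on log2 CPM each gave the same counts, 1 higher and 0 lower. The share of all genes at that threshold is not given here. At the adjusted p, DESeq2 called 13.2% of the 32380 genes with at least 1 count higher and 15.5% lower. Limma called 19.3% and 21.9% of all tested genes. The study's rule of 1.5-fold at an unadjusted p of at most 0.05 gave 0 higher, beside 15.7% of all tested genes. The call of Podxl was lost with library totals, at 0.12 log2 and an edgeR adjusted p of 0.290, and in limma on both FPKM scales, at 0.10 log2. It was also lost without HN 8, at 0.25 log2 and an edgeR adjusted p of 0.0645, and without HN 12, at 0.29 log2 and an edgeR adjusted p of 0.0556.

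Of the genes that rose in HN, none was called between PEC and HN. Nes changed by -0.21 log2 (95% interval -0.54 to 0.13), Synpo by -0.17 log2 (95% interval -0.54 to 0.19) and Ptpro by 0.08 log2 (95% interval -0.17 to 0.34). Nes was below HN in 3 of 3 PEC libraries on both scales, and its interval takes in a fall to 0.69-fold. Magi2 had the largest uncalled difference, -0.51 log2 (95% interval -1.07 to 0.06), with an edgeR adjusted p of 0.142. Wt1 changed by -0.36 log2 (95% interval -0.96 to 0.24), Cdkn1c by 0.24 log2 (95% interval -0.18 to 0.66) and Nphs1 by 0.06 log2 (95% interval -0.27 to 0.40). These intervals do not show that the levels are alike, since several take in changes of more than 1.5-fold. With the length trend removed, Ptpro was also called higher, at 0.38 log2, and Nes and Synpo turned to 0.07 and 0.25 log2. In limma on log2(FPKM + 1), Nes was called lower at -0.39 log2 (adjusted p 0.0360), 1 of 8 beside 39.4% of all tested genes called lower on that scale.

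In PEC kidneys, set against Control, Nes, Ptpro and Synpo were again called higher, and Magi2 was called lower. The comparison asks what remains of the disease under treatment. Nes was 2.25-fold higher (1.17 log2, SE 0.15, 95% interval 0.83 to 1.51), with an edgeR adjusted p of 0.000259. Ptpro was 1.60-fold higher (0.68 log2, SE 0.11, 95% interval 0.43 to 0.94), with an edgeR adjusted p of 0.00109, and Synpo 1.56-fold higher (0.65 log2, SE 0.16, 95% interval 0.28 to 1.01), with an edgeR adjusted p of 0.00987. Each of these genes was above every Control library in 3 of 3 PEC libraries. Magi2 fell by 0.77 on the log2 scale (SE 0.25, 95% interval -1.34 to -0.20), to 0.59-fold of Control, with an edgeR adjusted p of 0.0325. Beside the 3 of 8 higher and 1 of 8 lower stand 22.9% of all tested genes called higher and 23.5% called lower. At an unadjusted p under 0.05, edgeR, DESeq2 and limma on log2 CPM each gave 4 higher and 1 lower, the added gene in edgeR being Podxl at 0.20 log2 (95% interval 0.02 to 0.38) with an adjusted p of 0.0696. No share of all genes is given here at that threshold, so the gain is no result about the group. At the adjusted p, DESeq2 called 17.4% of the 32380 genes with at least 1 count higher and 16.2% lower. Limma called 24.3% and 24.4% of all tested genes. Cdkn1c changed by 0.38 log2 (95% interval -0.04 to 0.80), Nphs1 by 0.24 log2 (95% interval -0.10 to 0.57) and Wt1 by -0.16 log2 (95% interval -0.76 to 0.44), none of them called. Without PEC 3, Nphs1 was called higher at 0.41 log2. Upper quartile scaling added Podxl at 0.36 log2 and Cdkn1c at 0.54 log2 to the higher calls, so that 5 members were higher beside 28.6% of all tested genes. Library totals gave 6 members, beside 36.4%, and limma on log2(FPKM + 1) and log2(FPKM + 0.1) also 6, beside 39.6% and 40.2%. Median-of-ratios factors and a filter at a mean of 1 CPM each gave 4, beside 23.6% and 28.3%, and so did the fit without mitochondrial and ribosomal RNA genes, beside 23.6%, the added gene being Podxl at 0.22 log2 (edgeR adjusted p 0.0461).

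The lower call of Magi2 in PEC against Control was lost in several refits. Magi2 was not called without Control 2 (-0.62 log2, edgeR adjusted p 0.109), without Control 4 (-0.78 log2, edgeR adjusted p 0.0677), without PEC 1 (-0.63 log2, edgeR adjusted p 0.103) or without PEC 3 (-0.70 log2, edgeR adjusted p 0.0918). Library totals gave -0.42 log2 (edgeR adjusted p 0.203) and upper quartile scaling -0.61 log2 (edgeR adjusted p 0.0737). In limma, log2(FPKM + 1) gave -0.18 log2 (adjusted p 0.236), log2(FPKM + 0.1) gave -0.40 log2 (adjusted p 0.206), and TMM-scaled CPM with the length trend removed gave -0.52 log2 (adjusted p 0.110). Magi2 has a length of 12595 bases, longer than 94.7% of expressed genes, and the PEC libraries are those whose deviation falls with length. Without PEC 2, the library with the most ribosomal RNA, Magi2 stayed called at -0.98 log2 (edgeR adjusted p 0.0184), and so did Podxl against HN at 0.29 log2 (edgeR adjusted p 0.0423). The comparisons share animals: each of the 3 groups enters 2 of them, so a high or low library moves a gene in both.

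**Figure D2:**
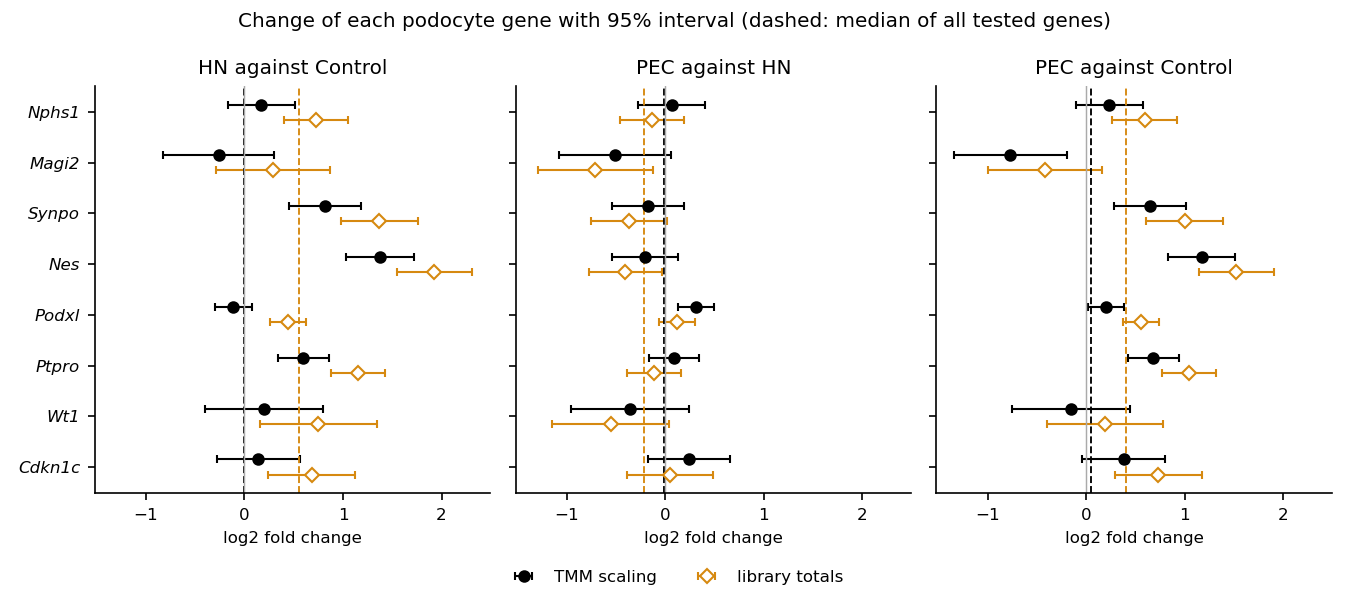
Log2 fold change (horizontal axis) with its 95% interval for each of the 8 podocyte genes in the 3 comparisons, with TMM scaling as filled circles and library totals as open diamonds. Dashed lines in the same colours mark the median of all tested genes. Nes, Synpo and Ptpro lie to the right of both dashed lines in HN and in PEC against Control, while Podxl in HN lies left of 0 with TMM and right of 0 with library totals.

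The number of podocyte genes called higher depended on the scaling. The median log2 change of the 8 genes in HN against Control was 0.19, beside -0.0008 for all tested genes, and it was 0.74 beside 0.56 with library totals. With the length trend removed it was -0.04 beside -0.20. For PEC against HN it was -0.05, beside -0.01 for all tested genes, and it was -0.25 beside -0.21 with library totals. It was 0.07 beside 0.11 with upper quartile scaling and 0.19 beside 0.05 with the length trend removed. For PEC against Control it was 0.31, beside 0.04, and 0.66 beside 0.40 with library totals. It was 0.47 beside 0.20 with upper quartile scaling and 0.19 beside -0.11 with the length trend removed. The share of calls that are higher also moved: in HN against Control 50.5% of called genes were higher, against 85% with library totals and 36.1% with the length trend removed. For PEC against HN the share was 47.1%, against 30.0% with library totals and 58.5% with upper quartile scaling, and for PEC against Control it was 49.3%, against 73.3% and 60.6%. The calls of Nes, Synpo and Ptpro in HN and in PEC against Control were kept under every alternative that gave a fold change. Summed over the 8 genes, FPKM was 54.6, 56.4 and 45.9 in Control 2, 4 and 5, then 89.7, 83.3 and 82.2 in HN 4, 8 and 12, and 83.5, 83.3 and 79.4 in PEC 1, 2 and 3. Podxl is the largest term of each sum.

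A wider set of 56 genes, listed for their roles in podocytes and grouped by role, was read the same way. The part of other kidney cells in the values of this set was not tested. In HN against Control 29 of the 56 were called higher, 7 lower and 20 neither, beside 21.1% of all tested genes higher and 20.7% lower, with a median of 0.43 log2 beside -0.0008. Library totals gave 41 higher and 3 lower, beside 45.1% and 8.0% of all tested genes, and the length trend removed gave 19 and 7, beside 17.4% and 30.9%. In PEC against HN 5 were higher, 23 lower and 28 neither, beside 18.3% and 20.6% of all tested genes, with a median of -0.35 log2 beside -0.01. Library totals gave 3 and 33, beside 12.1% and 28.2%, and the length trend removed gave 10 and 18, beside 21.4% and 16.7%. In PEC against Control 17 were higher, 12 lower and 27 neither, beside 22.9% and 23.5% of all tested genes, with a median of 0.12 log2 beside 0.04. Library totals gave 27 and 6, beside 36.4% and 13.3%, and the length trend removed gave 13 and 11, beside 20.2% and 29.1%. Whether the wider set and the 8 genes differ from each other was not tested. The counts of each list below are to be read beside these same shares of all tested genes.

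Among 15 further genes of the slit diaphragm and its scaffold, 10 were called higher in HN against Control and the other 5 were not called. The median was 0.66 log2, and 21.1% of all tested genes were higher. With the length trend removed, 6 were higher, beside 17.4% of all tested genes, with a median of 0.41 log2. Kirrel, a partner of nephrin, measured 2.06, 1.80 and 1.74 FPKM in Control 2, 4 and 5, then 8.24, 8.85 and 8.27 FPKM in HN 4, 8 and 12, and 4.19, 4.93 and 4.31 FPKM in PEC 1, 2 and 3. The 3 groups were far apart and PEC lay between. Kirrel rose by 1.65 log2 in HN (SE 0.10, edgeR adjusted p 4.52e-06), fell by 0.70 log2 from HN to PEC (SE 0.10, edgeR adjusted p 0.000634) and stayed 0.95 log2 above Control in PEC.

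The largest rises of that list in HN were those of Kirrel3 at 3.48 log2 and the channel gene Trpc6 at 1.86 log2, both from under 0.1 FPKM in every Control library. Kirrel3 was at 0 FPKM in Control 2, and Kirrel2 in Control 4. In PEC against HN, 10 of the 15 fell and 1 rose, beside 20.6% and 18.3% of all tested genes, with a median of -0.70 log2. Removing the length trend left 6 that fell and 1 that rose, beside 16.7% and 21.4% of all tested genes, with a median of -0.35 log2. The largest falls were those of Trpc6 at -2.02 log2 and of Tjp1, which encodes a junction scaffold, at -1.14 log2. The 1 that rose was Crb2, a polarity gene, at 0.61 log2, a call that library totals removed at 0.41 log2. In PEC against Control, 3 were higher and 2 lower, beside 22.9% and 23.5% of all tested genes, with a median of 0.02 log2. Kirrel at 0.95 log2 and Crb2 at 0.64 log2 led the higher calls. Tjp1 at -0.49 log2 and the adaptor gene Nck1 at -0.47 log2 were the lower ones, and neither was called with library totals. The higher calls numbered 5 with library totals, with upper quartile scaling and with the length trend removed. Of all tested genes, 36.4%, 28.6% and 20.2% were higher under these settings. The medians were then 0.38, 0.18 and 0.11 log2, in that order. Summed FPKM of the list was 60.8, 61.2 and 58.7 in Control 2, 4 and 5, then 123.6, 126.6 and 118.4 in HN 4, 8 and 12, and 72.7, 74.9 and 66.9 in PEC 1, 2 and 3.

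Among 15 further genes of the foot process cytoskeleton the directions were mixed. In HN against Control 5 were higher, 3 lower and 7 neither, beside 21.1% of all tested genes higher and 20.7% lower. The median was -0.03 log2 and turned to 0.53 with library totals and to 0.01 with upper quartile scaling. The rises were led by Dnm1, a dynamin gene, at 1.82 log2 and by Vim, which encodes the filament vimentin and is also made by mesenchymal cells, at 1.33 log2. The falls were led by Clic5, a partner of ezrin in foot processes, at -0.91 log2, and by Arhgap24, a Rac regulator, at -0.78 log2. Clic5 measured 9.81, 10.07 and 11.30 FPKM in Control 2, 4 and 5, then 8.19, 7.82 and 8.12 FPKM in HN 4, 8 and 12, and 6.81, 6.59 and 6.68 FPKM in PEC 1, 2 and 3, and was lower in every diseased library than in every Control library. Arhgap24 was not called with library totals, at -0.22 log2.

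In PEC against HN, Actn4, an actin crosslinker, was the largest faller of the cytoskeleton list at -0.65 log2, and Ddn at 0.64 log2 and Rhpn1 at 0.58 log2 rose. In all, 2 rose and 3 fell, beside 18.3% and 20.6% of all tested genes. The median was -0.05 log2 and turned to 0.08 with upper quartile scaling. With the length trend removed it was 0.18 log2, where 5 rose and 2 fell, beside 21.4% and 16.7%. Library totals gave 1 higher and 7 lower, beside 12.1% and 28.2%, and a median of -0.25 log2. Nebl fell by 0.60 log2, but was not called with upper quartile scaling (-0.47 log2) or with the length trend removed (-0.02 log2), and Rhpn1 was not called with library totals. In PEC against Control, 4 were higher and 3 lower, beside 22.9% and 23.5% of all tested genes. The median was -0.04 log2, which library totals turned to 0.33 and upper quartile scaling to 0.12. Vim at 1.71 log2 and Dnm1 at 1.34 log2 were highest, Clic5 at -0.95 log2 and Arhgap24 at -0.69 log2 lowest.

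Among 15 podocyte surface, secreted and antigen genes, 7 were higher and 4 lower in HN against Control, beside 21.1% and 20.7% of all tested genes. The median was 0.42 log2. With the length trend removed, 4 were higher and 4 lower, beside 17.4% and 30.9%, with a median of 0.15 log2. Vegfa, the growth factor through which podocytes support glomerular endothelium and which tubules also make, measured 29.44, 30.00 and 28.69 FPKM in Control 2, 4 and 5, then 17.74, 18.86 and 20.57 FPKM in HN 4, 8 and 12, and 41.11, 40.81 and 40.34 FPKM in PEC 1, 2 and 3. In FPKM the 3 groups did not overlap. Vegfa fell by 1.16 log2 in HN (SE 0.07, edgeR adjusted p 3.86e-06) and rose by 1.31 log2 from HN to PEC (SE 0.07, edgeR adjusted p 1.01e-05). Its change in PEC against Control, 0.16 log2 (edgeR adjusted p 0.0859), was not called, was called with library totals at 0.51 log2, and was -0.01 log2 with the length trend removed. Bmp7 followed with -1.02 and 0.61 log2. Sulf1, an extracellular sulfatase gene, led the rises in HN at 3.21 log2, followed by the guidance receptor gene Robo2 at 0.74 log2. Pla2r1, the antigen of membranous nephropathy, rose by 0.42 log2 in HN, a call that was lost with the length trend removed (0.19 log2, limma adjusted p 0.241), and fell by 0.97 log2 from HN to PEC.

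Between PEC and HN, 2 of these 15 genes rose and 6 fell, beside 18.3% and 20.6% of all tested genes. The median was -0.25 log2 and turned to 0.04 with the length trend removed. Sulf1 at -1.62 log2 and Thsd7a, a further membranous nephropathy antigen gene, at -1.30 log2 fell most. Dag1, the dystroglycan gene and the most abundant of the list, fell by 0.93 log2, from 50.2 to 22.6 mean FPKM. In PEC against Control, 4 were higher and 6 lower, beside 22.9% and 23.5% of all tested genes, with a median of -0.32 log2. With library totals the median turned to 0.04, and 6 were higher and 2 lower, beside 36.4% and 13.3%. Sulf1 at 1.60 log2 and Rab3b at 0.92 log2 were highest, and the peptidase genes Mme at -1.23 log2 and Enpep at -0.69 log2, which the proximal tubule also expresses, were lowest.

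Among 11 further transcription factors listed for podocytes, 7 were called higher in HN against Control and the other 4 were not called. The median was 0.71 log2, and 21.1% of all tested genes were higher. Which kidney cells made these transcripts was not tested. Tcf21, a podocyte and stromal factor, measured 7.92, 5.99 and 5.24 FPKM in Control 2, 4 and 5, then 17.05, 21.10 and 24.10 FPKM in HN 4, 8 and 12, and 15.32, 12.65 and 15.95 FPKM in PEC 1, 2 and 3. In FPKM, Control was low in all libraries, HN high, and PEC between them, but HN and PEC overlapped after TMM scaling. Tcf21 rose by 1.17 log2 in HN (SE 0.17, edgeR adjusted p 0.000534) and was 0.88 log2 above Control in PEC, while its change from HN to PEC, -0.28 log2, was not called (edgeR adjusted p 0.217). The largest rises were those of Sox4 at 2.49 log2 and of Klf6, the most abundant, at 1.85 log2. In PEC against HN, 4 fell and 7 were not called, beside 20.6% of all tested genes lower, with a median of -0.28 log2. Sox4 at -2.21 log2 and Dach1 at -1.58 log2 fell most. In PEC against Control, 6 were higher, led by Zbtb7c at 1.33 log2 and Tcf21, and 1 was lower, Dach1 at -0.87 log2. The median was 0.41 log2, and 22.9% of all tested genes were higher and 23.5% lower. With the length trend removed, 5 were higher in HN and 2 in PEC against Control, beside 17.4% and 20.2% of all tested genes. With library totals 9 were higher in each, beside 45.1% and 36.4%.

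**Figure D3:**
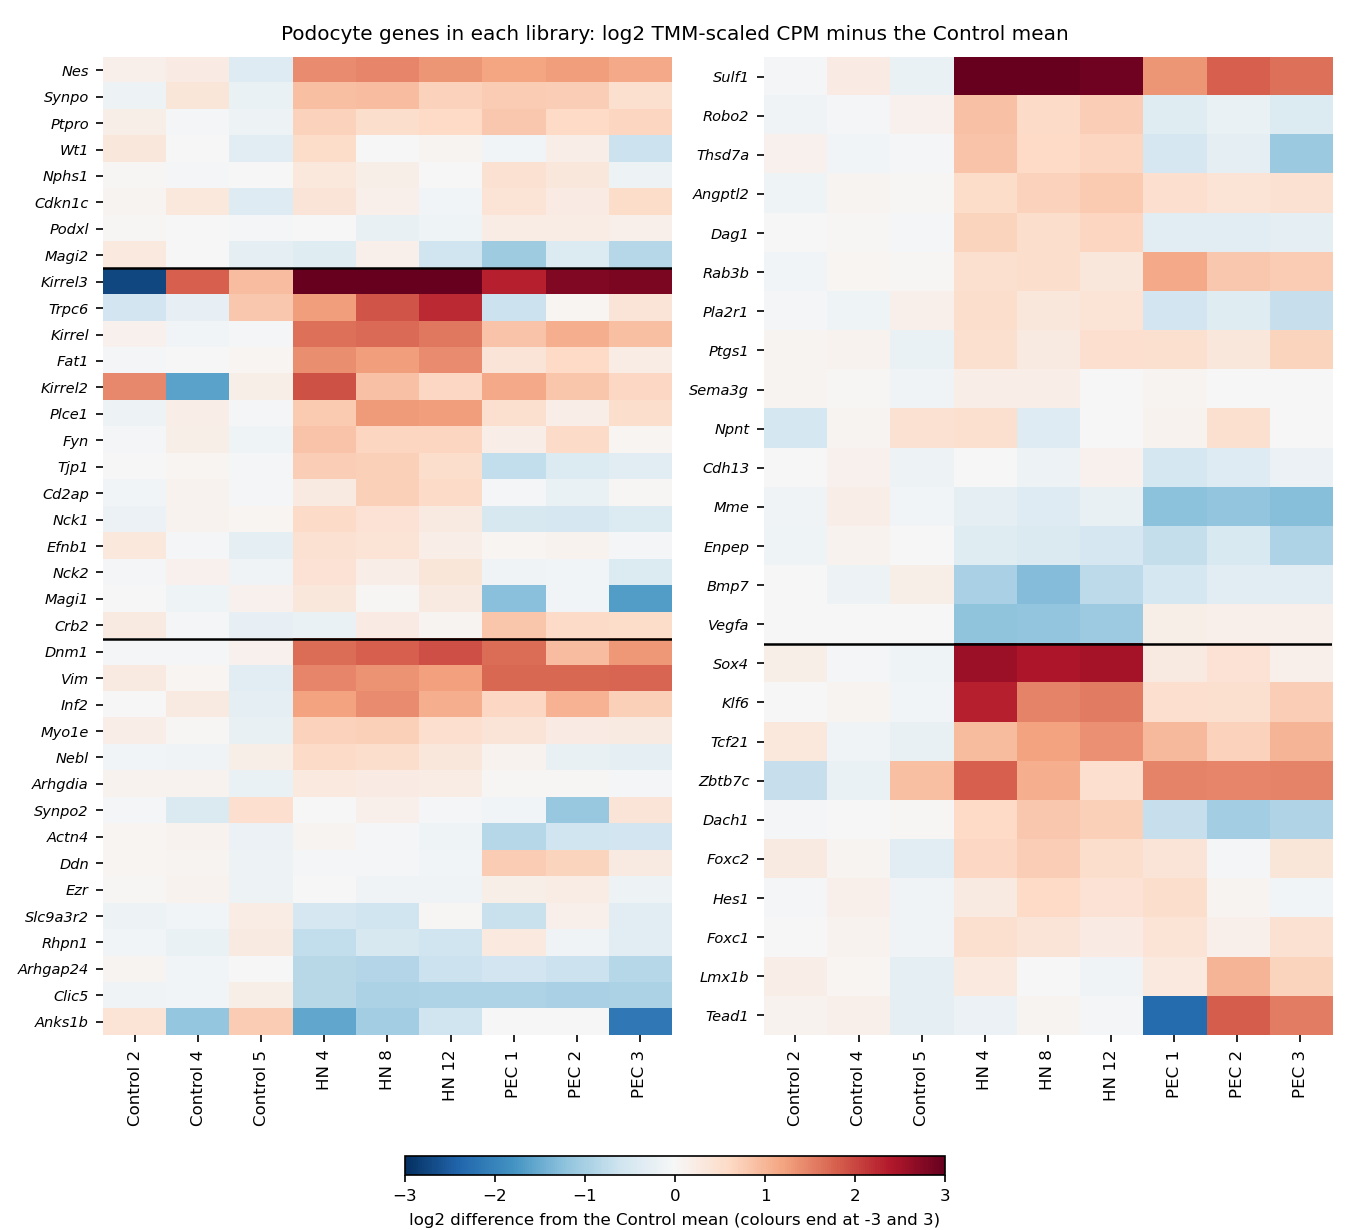
Log2 TMM-scaled CPM minus the Control mean, coloured from blue (lower) to red (higher), for the 8 podocyte genes and further genes of the wider set (rows, in the order of their lists, split by black lines) in each of the 9 libraries (columns). Colours end at -3 and 3. Nes, Synpo and Ptpro are red in all 6 diseased libraries, and Vegfa and Bmp7 are blue in HN.

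The glomerular basement membrane, which podocytes build together with endothelial cells, was read from 12 genes. In HN against Control 10 were higher and 2 lower, beside 21.1% and 20.7% of all tested genes, with a median of 0.61 log2. Lamb2, the defining laminin gene of this membrane, rose by 0.39 log2, Agrn by 1.64 log2 and Nid1 by 1.5 log2. The 2 that fell were the collagen genes Col4a3 at -0.81 log2 and Col4a4 at -0.67 log2, and neither was called with library totals, while Col4a5, of the same collagen network, was called higher at 0.57 log2. Removing the length trend gave 8 higher and 2 lower, beside 17.4% and 30.9% of all tested genes. In PEC against HN, 7 fell and 5 were not called, beside 20.6% of all tested genes lower, with a median of -0.49 log2. With the length trend removed, 4 were higher and 5 lower, beside 21.4% and 16.7%, with a median of -0.21 log2. Hspg2 fell most, at -1.32 log2, followed by Nid1 at -1.06 log2. Itgb1, the most abundant, fell by 1.03 log2. In PEC against Control, 5 were higher, led by Agrn at 1.18 log2 and Lama5 at 0.69 log2, and 5 lower, led by Col4a3 at -0.95 log2 and Col4a4 at -0.63 log2, with a median of 0.11 log2. Beside these calls stand 22.9% of all tested genes higher and 23.5% lower. Library totals gave 6 higher and 1 lower, beside 36.4% and 13.3%.

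Genes listed as markers of the neighbouring glomerular cells were read as well. The libraries are of whole kidney, and which cells made these transcripts was not tested. Of all tested genes, 21.1% were higher and 20.7% lower in HN against Control. The shares were 18.3% and 20.6% in PEC against HN, and 22.9% and 23.5% in PEC against Control. Of 9 parietal epithelial markers, 7 were higher in HN, with a median of 1.48 log2, Cd44 at 4.96 log2, Ncam1 at 3.25 log2 and the defining marker Cldn1 at 2.55 log2. From HN to PEC 1 rose and 5 fell, and in PEC against Control 8 were higher and 1 lower. Their summed FPKM, mostly Krt8 and Cd24a, was 209.2, 205.6 and 126.1 in Control 2, 4 and 5, then 651.4, 599.7 and 651.4 in HN 4, 8 and 12, and 483.9, 471.5 and 497.4 in PEC 1, 2 and 3. This sum moved in the same direction as Nes and Synpo, high in HN and between in PEC, and its part in their change was not tested. Of 13 endothelial markers, 2 were higher and 4 lower in HN, with a median of -0.22 log2. Library totals turned this to 6 higher, beside 45.1% of all tested genes, 7 not called and 0.34 log2. With the length trend removed, 8 were lower, beside 30.9%. Kdr at -1.0 log2 and Flt1 at -0.82 log2 fell most, both uncalled with library totals, and the defining marker Ehd3 changed by -0.51 log2. From HN to PEC 1 rose and 1 fell, against 5 that fell with library totals, beside 28.2% of all tested genes. In PEC against Control 4 fell, which library totals turned to 4 higher and 2 lower, beside 36.4% and 13.3%. The summed endothelial FPKM, led by Plvap, was 146.2, 157.8 and 143.7 in Control 2, 4 and 5, then 192.1, 194.5 and 197.4 in HN 4, 8 and 12, and 137.4, 149.7 and 182.7 in PEC 1, 2 and 3. Of 9 mesangial and juxtaglomerular markers, 4 were higher in HN, with a median of 0.62 log2 and led by Serpine2 at 3.08 log2, while the defining marker Gata3 was not called. Between HN and PEC 2 rose and 3 fell, and in PEC against Control 4 were higher and 1 lower. With library totals, 7 of these markers were higher in HN, beside 45.1% of all tested genes, with a median of 1.18 log2. On that scale 7 were higher and 0 lower in PEC against Control, beside 36.4% and 13.3% of all tested genes. Their summed FPKM, led by Ren1, was 65.4, 70.0 and 44.7 in Control 2, 4 and 5, then 123.2, 125.6 and 117.4 in HN 4, 8 and 12, and 143.8, 119.2 and 97.6 in PEC 1, 2 and 3.

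Other cells of the kidney that can hold some of the same transcripts also moved with the groups. All 10 fibroblast and myofibroblast markers were higher in HN, with a median of 2.39 log2, 8 of them fell from HN to PEC, and 7 stayed higher in PEC against Control. Their summed FPKM, led on average by Tagln, was 65.5, 63.9 and 61.9 in Control 2, 4 and 5, then 468.8, 467.6 and 434.9 in HN 4, 8 and 12, and 218.9, 255.8 and 210.2 in PEC 1, 2 and 3. The defining marker Postn rose by 2.42 log2 in HN. Nestin and vimentin are made in such cells too, so the part of these cells in the rise of Nes was not tested. Of 5 tested mesothelial markers, 2 were higher in HN, Krt19 and Krt7, with a list median of 0.36 log2, 1 rose from HN to PEC, and 2 were higher in PEC against Control. The defining marker Msln was not called, and the untested Lrrn4 was at 0 FPKM in 3 libraries. In HN against Control, Upk3b changed by -1.14 log2 and Upk1b by -0.80 log2, neither called. Krt19 and Krt7 hold most of the FPKM of this list, and which cells made them was not tested. PEC 3 stood apart, with 2.88 FPKM of Msln, 3.37 of Upk3b and 8.01 of Upk1b, against at most 0.56, 1.6 and 1.08 in any other library, and the part of this in the Wt1 values was not tested. Summed mesothelial FPKM, led on average by Krt7, was 23.2, 23.8 and 13.1 in Control 2, 4 and 5, then 68.1, 64.2 and 72.3 in HN 4, 8 and 12, and 71.0, 63.2 and 108.5 in PEC 1, 2 and 3.

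Markers of the tubules were read as well. Of 10 proximal tubule markers, 9 were lower in HN with a median of -1.93 log2, 9 rose from HN to PEC, and 10 were lower in PEC against Control, the defining marker Slc34a1 at -2.28, 1.23 and -1.05 log2. Their summed FPKM, most of it Kap, was 27090.0, 26430.0 and 39930.0 in Control 2, 4 and 5, then 3654, 6051 and 4875 in HN 4, 8 and 12, and 13890.0, 19530.0 and 12890.0 in PEC 1, 2 and 3. Since FPKM is a share of the library, a fall of such abundant genes and a rise of all others cannot be told apart on that scale, and the same holds for the podocyte genes in FPKM. Of 8 markers of other nephron segments, 5 were lower in HN with a median of -0.64 log2, 4 rose from HN to PEC, and 2 were higher and 4 lower in PEC against Control (4 and 2 with library totals), while Umod, their defining and most abundant marker, was called in no comparison. Library totals gave 2 of them higher and 3 lower in HN. Summed FPKM of these 8 was 1440.0, 1612 and 1351 in Control 2, 4 and 5, then 1792, 1577 and 1790.0 in HN 4, 8 and 12, and 1550.0, 1598 and 1515 in PEC 1, 2 and 3.

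Markers of tubular injury, leukocytes and proliferation rose along with Nes, Synpo and Ptpro, and their part in the change of the podocyte genes was not tested. All 7 tubular injury markers were higher in HN and in PEC against Control, led by the defining marker Havcr1 at 7.58 log2 in HN, and 2 fell from HN to PEC. Their summed FPKM, most of it Spp1, was 468.5, 506.7 and 408.2 in Control 2, 4 and 5, then 12630.0, 11420.0 and 11540.0 in HN 4, 8 and 12, and 8933, 9098 and 7428 in PEC 1, 2 and 3. Of 8 tested leukocyte markers 5 were higher in HN, with a list median of 2.03 log2 and led by Adgre1 at 3.74 log2, 3 fell from HN to PEC, and 4 were higher in PEC against Control. Their summed FPKM, led on average by Csf1r, was 11.4, 14.3 and 12.8 in Control 2, 4 and 5, then 91.9, 93.4 and 83.8 in HN 4, 8 and 12, and 38.7, 43.1 and 50.02 in PEC 1, 2 and 3. Of 8 proliferation genes 7 were higher in HN and in PEC against Control, led by Aurkb at 3.96 log2 in HN, and 1, Pcna, fell from HN to PEC. Their summed FPKM, led by Pcna, was 18.2, 20.3 and 14.4 in Control 2, 4 and 5, then 50.5, 44.01 and 50.6 in HN 4, 8 and 12, and 31.4, 35.0 and 30.0 in PEC 1, 2 and 3. The defining marker of each of these 3 lists was above 0 FPKM in every library. With TMM scaling, the cell cycle inhibitor gene Cdkn1c was called in neither direction in these same libraries. Library totals called it higher in HN at 0.68 log2 and in PEC against Control at 0.73 log2. Upper quartile scaling called it higher in PEC against Control only, at 0.54 log2.

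**Figure D4:**
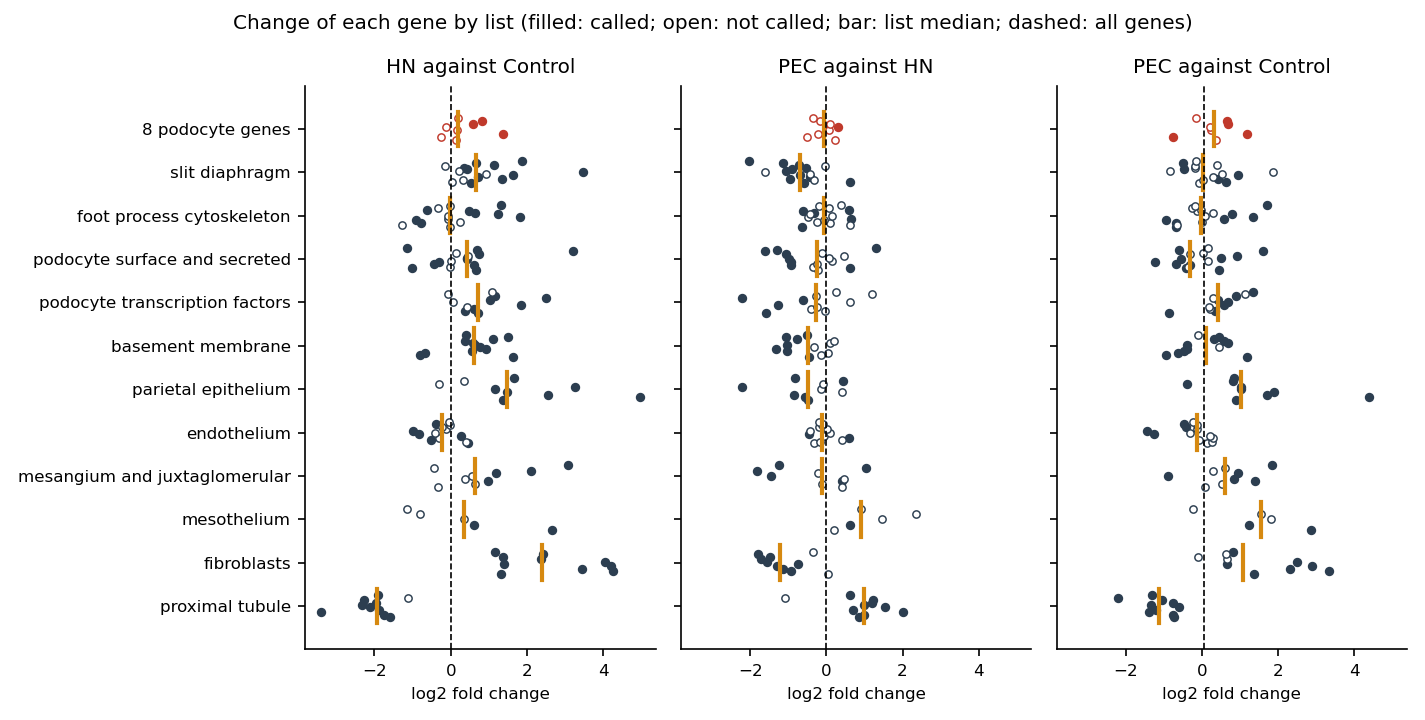
Log2 fold change (horizontal axis) of each gene by list in the 3 comparisons, filled where called and open where not, with the 8 podocyte genes in red, the median of each list as an orange bar and the median of all tested genes as a dashed line. The slit diaphragm, surface and transcription factor genes lie mostly right of the dashed line in HN and mostly left of it in PEC against HN, where the 8 podocyte genes lie 4 on each side. With library totals in place of TMM, the cytoskeletal and endothelial medians in HN turn from below 0 to above it, and with the length trend removed the medians of the 8 genes and of the cytoskeletal, surface and endothelial lists in PEC against HN do so.

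The 8 genes did not follow a common pattern over the 9 libraries. By Pearson r of log2 TMM-scaled CPM, a description of libraries that share 3 groups and given with no p, Nes was most like Emp3 and Tmem59l (r 0.99 for both). Synpo was most like Gm15922 and Pdcd1lg2 (r 0.99 for both), and Ptpro was most like Fosl1 and Traf2 (r 0.99 for both). These 3 members were also like each other: r was 0.94 for Nes and Synpo, 0.92 for Nes and Ptpro and 0.81 for Synpo and Ptpro. Even so, of all tested genes, Nes ranked only 92nd in likeness to Synpo. Podxl was most like Gm37475 (r 0.98) and Dusp26 (r 0.97). Its r was 0.56 with Cdkn1c, 0.31 with Ptpro, 0.06 with Nes, 0.02 with Synpo and -0.53 with Magi2. Nphs1 was most like Dynll1 (r 0.94) and Rpl22 (r 0.92), with an r of 0.58 to Synpo, 0.53 to Wt1 and 0.33 to Podxl. Wt1 was most like Ncs1 (r 0.93) and Prep (r 0.92). Cdkn1c was most like Slc2a1 (r 0.95) and Mir7-1 (r 0.94). Its r was 0.61 with Ptpro, 0.57 with Nes, 0.56 with Podxl and 0.55 with Synpo, but -0.01 with Wt1. Magi2 was most like Gm6304 (r 0.97) and Odr4 (r 0.94). Its r was below 0 with every other member but Wt1, and lowest with Ptpro at -0.61, so that the slit diaphragm genes Nphs1 and Magi2, at -0.24, did not vary together.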

How the data were processed

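The counts per gene that the authors deposited are whole numbers for 55385 genes in 9 kidney libraries. The FPKM values beside them were computed by the authors from those counts. Notes of the submitters name Bowtie 0.12.2, mm8 and mm9 with no stated role. The coordinates in the table are identical to GENCODE M21 on GRCm38 for 51991 of 55144 shared genes (94.3%). The counting program and its use of strand are not given in the sources used here.

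Counts were tested with edgeR 4.0.16 in R 4.3.3 (filterByExpr, TMM, glmQLFit, glmQLFTest, 9 libraries in a single fit, Benjamini-Hochberg adjustment over 21392 genes), because the RNA-seq methods of the study name thresholds and no test. Tables and figures were made with Python 3.11.15, pandas 2.3.3, numpy 2.4.6, scipy 1.17.1 and matplotlib 3.10.9. Gene lengths are those implied by count and FPKM, and GC content is that of GENCODE transcripts. The 8 members and all lists were chosen with earlier results of these data known. Named genes are the 8 members, the first and most abundant gene of each list, the 2 largest called rises and falls per list and comparison, and the 2 most alike genes per member, and some of these are not reported here. Cd24a, Kirrel2, Col4a5, Upk3b, Upk1b and Lrrn4 were named after their values were seen. Lists covered slit diaphragm, cytoskeleton, surface and transcription factor genes of podocytes, basement membrane, parietal, endothelial, mesangial, mesothelial, fibroblast, proximal tubule, other nephron, injury, leukocyte and proliferation genes.

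Alternatives were library totals, median-of-ratios and upper quartile factors, DESeq2 1.42.0, no filter and a mean of at least 1 CPM, limma 3.58.1 with a trend on log2(FPKM + 1) and log2(FPKM + 0.1) where the mean FPKM reached 0.5, only the groups compared, the study's rule, length and GC trends removed (splines with 5 degrees of freedom), no mitochondrial and ribosomal RNA genes, and each library left out. Limma on log2 CPM with no trend removed was chosen after seeing the data. Scripts were tested on simulated counts, in which genes of at least 10 CPM were recovered well and genes drawn from any level less often. Magi2 and Wt1 lie near or below that level. Promoter windows came from RefSeq.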

Additional observations from a re-analysis of the deposited data

How the results depend on the processing

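Of 528 pairings of a podocyte gene's change with an alternative, 455 kept their direction and their side of the threshold, 31 reversed, 28 became called and 14 lost their call. Where a value changed, the cause was not tested. Genes called in both directions together stayed within 1.5 times of the edgeR counts under every alternative, but those called higher or lower did not: in HN against Control, library totals moved them from 4520 to 9642 higher and from 4425 to 1706 lower.

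For HN against Control, library totals and limma on log2(FPKM + 1) or log2(FPKM + 0.1) each called 7 members higher, beside 45.1%, 52.3% and 52.1% of all tested genes. On these scales, in that order, Podxl reversed to 0.44, 0.41 and 0.42 log2 and Magi2 to 0.29, 0.12 and 0.23. With the length trend removed and with the length and GC trend removed, 1 member, Podxl, was called lower, beside 30.9% and 31.0% of all tested genes, and Nphs1 reversed to -0.093 and -0.14 log2, Wt1 to -0.060 and -0.092 and Cdkn1c to -0.017 and -0.13. With each replicate left out in turn, Cdkn1c ran from -0.028 (without Control 5) to 0.31 (without Control 4).

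For PEC against HN, 0 members were higher with library totals (beside 12.1% of all tested genes), limma on log2(FPKM + 1) (16.3%) and log2(FPKM + 0.1) (15.7%) and the study's rule of 1.5-fold at an unadjusted p of at most 0.05 (15.7%), and 2 with the length trend removed (21.4%). DESeq2 gave 1, beside 13.2% of the 32380 genes with at least 1 count, and edgeR gave 1, beside 18.3% of all tested genes. Both also gave 1 at an unadjusted p under 0.05, for which no share of all genes is given here. Limma on log2(FPKM + 1) called 1 lower, Nes, beside 39.4% of all tested genes. On library totals, log2(FPKM + 1) and log2(FPKM + 0.1), Nphs1 reversed to -0.13, -0.14 and -0.17 log2 and Ptpro to -0.11, -0.11 and -0.13. With the length trend and with the length and GC trend removed, Synpo reversed to 0.25 and 0.19 log2 and Nes to 0.071 and 0.0082. With each replicate left out in turn, 0 to 1 members were higher. The count was 0 without HN 8 (beside 13.4% of all tested genes) or HN 12 (14.5%), where the main fit had 18.3%. In these fits Nphs1 ran from -0.063 log2 (without PEC 1) to 0.25 (without PEC 3), being below 0 also without HN 12.

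For PEC against Control, 6 members were higher with library totals (beside 36.4% of all tested genes) and the FPKM scales (39.6% and 40.2%), and 5 with upper quartile factors (28.6%). In edgeR 0 were lower with library totals (beside 13.3% of all tested genes) and upper quartile factors (18.6%). The same held in limma on log2(FPKM + 1) (18.7%), log2(FPKM + 0.1) (18.9%) and with the length trend removed (29.1%). DESeq2 gave 1 lower, beside 16.2% of the 32380 genes with at least 1 count. At an unadjusted p under 0.05 the count was also 1, with no share of all genes given here. With each replicate left out in turn, 0 to 1 were lower, 0 without Control 2, Control 4, PEC 1 or PEC 3. Of all tested genes 20.4%, 20.4%, 20.4% and 20.3% were lower in these fits, against 23.5% in the main fit. Wt1 reversed to 0.19 log2 with library totals, 0.0075 with upper quartile factors and 0.075 and 0.14 on the FPKM scales, and ran from -0.36 (without PEC 2) to 0.061 (without PEC 3) with replicates left out, being above 0 also without Control 2.

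No paired analysis was possible because the groups share fewer than 2 animal numbers. The limits are those of 3 mice a group, of bulk tissue, of PEC libraries that differ from all others in ribosomal RNA, length and GC trends and cannot be told apart from a library batch, and of unknown strand handling at Nphs1. The squared differences between replicate pairs were 59.8 to 206 times the variance of counting error (chi-square per degree of freedom). These values are pooled over genes and do not settle what limits low genes such as Magi2 and Wt1.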
